A study of Bos taurus with 10 samples.

Results

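Glycolysis breaks glucose down to pyruvate, gluconeogenesis runs the route backwards in liver and kidney, and glycogen is the branched store that feeds it. Enzymes of these routes were chosen by name, as a list of 37 human gene symbols. Of these, 25 genes were read by 39 probe sets with values and a single symbol, out of 6732 genes and 10219 probe sets with values in the whole data set. Of the 39 probe sets, 36 entered the tests, beside all 10186 probe sets that were not manufacturer's controls, and 3 were the manufacturer's GAPDH controls, described but not tested. The probe sets of the remaining 12 genes, HK1, HK2, PFKL, GYS1, GYS2, GBE1, PHKB, PHKG1, PHKG2, FBP1, PCK1 and PC, were blank on every array and are not analysed here.

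Total RNA from pools of cattle embryos made by in vitro fertilization (IVF) and total RNA from adult cattle tissues were read with a human expression array, so each bovine transcript was read by probes designed for a human gene. The embryo RNA was read on 3 arrays, and 7 tissues had a single array each, from brain and spleen, heart and muscle, and kidney, liver and lung. The labels name no treatment, and animal age, embryo stage and pool size were not used here. Nothing in the labels says that the 3 embryo arrays came from separate pools, so p-values that use their spread may measure technical spread only. The adult spread is a spread between tissues. In bulk RNA, fewer cells of a type and less RNA per cell cannot be told apart.

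Several steps of these routes are catalysed by isoenzymes, products of different genes that carry out the same reaction in different tissues. Textbook examples are the muscle, liver and brain forms of glycogen phosphorylase (PYGM, PYGL, PYGB), the muscle and heart forms of lactate dehydrogenase (LDHA, LDHB) and the muscle form of enolase (ENO3). Early embryos are known to use pyruvate first and to take up more glucose as they form a blastocyst. All values below are quantile-normalised intensities, which are linear and in arbitrary units, and differences are of log2(intensity + 72.2), in which changes of dim probe sets come out too small. Human probes can match bovine transcripts poorly, so the level of a probe set is compared with itself on other arrays and never with that of another gene.

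The labelled tissues carried their own markers to different degrees. Skeletal muscle markers were brightest in muscle for 6 of 7 genes, heart markers in heart for 5 of 5, liver markers in liver for 6 of 7 and brain markers in brain for 4 of 6. Lung markers were brightest in lung for 2 of 4 genes and kidney markers in kidney for 1 of 2, while the single spleen marker with a value was not brightest in spleen. The summed level of the 7 skeletal muscle markers was 6949 in muscle, 943 in heart, 43.9 to 137 in the other tissues and 67.5 to 90.5 on the embryo arrays. Trophectoderm markers summed to 8481 to 10805 on the embryo arrays and 244 to 884 in tissues. SFN made up most of the embryo sum, at 6224 to 8428. KRT8, KRT18 and TFAP2C were also above every tissue on each embryo array, while GATA3 (167 to 228) overlapped muscle (173.5). The third embryo array stood apart from the others, with a Spearman correlation of 0.831 with the first and 0.88 with the second, against 0.944 between those 2.

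Muscle was where most of these enzymes were brightest. Of the 36 probe sets, 19 (52.8%), for 14 of the 25 genes, had their highest tissue value in muscle, where 17.8% of all probe sets did. For 13 of the 19, heart came second. Heart was brightest for 5 probe sets (12.8% of all probe sets), brain for 4 (15.5% of all), liver for 4 (16.9%), kidney for 3 (11.8%), lung for 1 (10.7%) and spleen for 0 (14.5%). Taking the arrays as deposited gave 21 probe sets brightest in muscle, and scaling to a common median gave 19. On the muscle array 29 of the 36 lay above the array's median and on the heart array 25, against 14 to 18 on the 5 other tissue arrays and 16 to 18 on the embryo arrays.

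**Figure D1:**
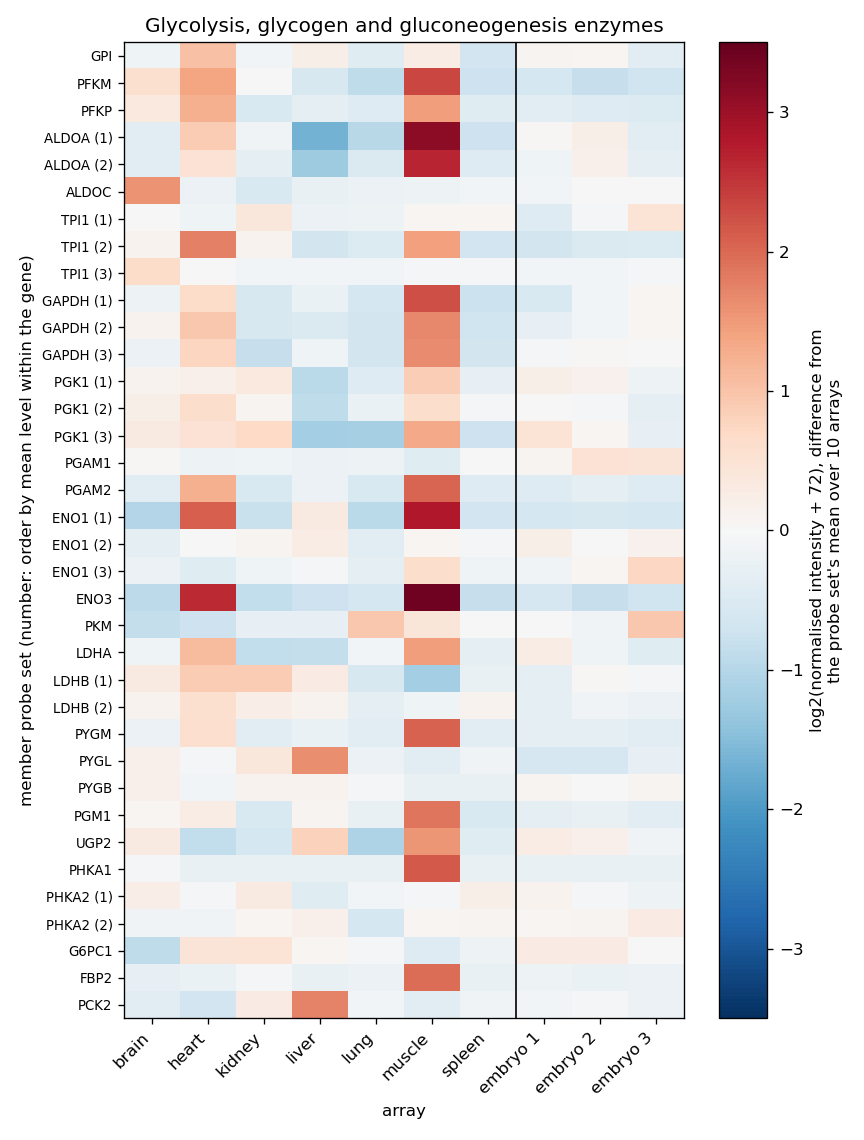
Level of the 36 tested member probe sets (rows, grouped by gene in pathway order) on the 10 arrays (columns). Colour is the log2(normalised intensity + 72) value minus the probe set's mean over the 10 arrays, red above and blue below. The muscle column holds most of the strongest reds, heart follows for the same rows in part, and brain and liver stand out for ALDOC and for PYGL and PCK2.

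A probe set was called tissue-restricted where its brightest tissue exceeded the next by at least 4 times and lay above that array's median, a description with no test since each tissue had 1 array. This held for 8 of the 36 (22.2%), beside 11.2% of all probe sets. Muscle accounted for 6 of them (16.7%, beside 1.89% of all probe sets), from ALDOA with 2 probe sets, PYGM, PGM1, PHKA1 and FBP2. The others were ALDOC in brain and PCK2 in liver.

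The first steps of glycolysis trap glucose and split it into trioses. GPI, which interconverts glucose and fructose phosphates, read 109.8 in brain, 337 in heart, 116 in kidney, 159.7 in liver, 78.3 in lung, 168 in muscle and 54.2 in spleen, and 143, 139 and 82.0 on the 3 embryo arrays. Heart was brightest, and the embryo arrays lay within the range of the tissues. Phosphofructokinase commits sugar to glycolysis, and PFKM is its muscle form. PFKM read 469 in brain, 884 in heart, 289 in kidney, 175 in liver, 126 in lung, 1788 in muscle and 149.8 in spleen, and 166, 136 and 155 on the 3 embryo arrays. Embryos sat with lung, spleen and liver, more than 10 times below muscle. PFKP, the platelet form, read 73.0 in brain, 199 in heart, 6.1 in kidney, 18.5 in liver, 10.4 in lung, 240.2 in muscle and 12.6 in spleen, and 14.4, 11.1 and 9.63 on the 3 embryo arrays. It was bright in muscle, heart and brain and low elsewhere, embryos included. The same tissues led for PFKM, though kidney, next for PFKM, was lowest for PFKP. PFKP had no other probe set with a value against which to check its pattern.

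Aldolase cleaves fructose bisphosphate, with ALDOA the form of muscle and ALDOC that of brain. ALDOA read 112 in brain, 378 in heart, 149 in kidney, 5.13 in liver, 51.4 in lung, 2035 in muscle and 74.7 in spleen, and 176, 205 and 113 on the 3 embryo arrays. Its other probe set gave 1482 in muscle, 30.0 in liver and 146, 200.1 and 122 on the embryo arrays. Both probe sets thus placed muscle far above all other arrays and liver at the bottom. ALDOC read 249 in brain, 22.2 in heart, 2.85 in kidney, 18.4 in liver, 21.6 in lung, 23.9 in muscle and 28.7 in spleen, and 28.6, 36.3 and 33.9 on the 3 embryo arrays. Brain alone was bright for it. The 3 probe sets of TPI1, which interconverts the trioses, had 3 different patterns: the brightest read 214 to 363 in tissues and 168, 246 and 389.9 on the embryo arrays, the next was bright in heart (328) and muscle (244) and read 3.67, 11.1 and 11.5 in embryos, and the last reached 48.3 in brain and lay below its array's median on all 10 arrays. The tissue pattern of TPI1 therefore depended on the probe set.

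The later steps of glycolysis yield ATP and pyruvate. GAPDH, the dehydrogenase often used as a reference gene, was not level across these arrays. Its brightest probe set read 708 in brain, 1312 in heart, 533 in kidney, 688 in liver, 508 in lung, 4181 in muscle and 452 in spleen, and 541, 755 and 862 on the 3 embryo arrays. Muscle exceeded every other array, and the other 2 probe sets also had muscle first and heart second. The 3 manufacturer's GAPDH controls, at the 5′ end, middle and 3′ end of the transcript, were highest in muscle too, at 818, 1578 and 1828 as deposited, which was 2.39, 3.47 and 2.52 times the embryo mean. The 5′ control over the 3′ control, a measure of RNA integrity, was 0.447 in muscle, 0.461 to 0.488 in embryos and 0.287 to 0.471 in the other tissues. PGK1, which makes the first ATP, read 296 in brain, 305 in heart, 354 in kidney, 104 in liver, 175 in lung, 536 in muscle and 201 in spleen, and 314, 303 and 223 on the 3 embryo arrays. Liver was dimmest for all 3 PGK1 probe sets, and embryos stayed within the tissue range.

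Phosphoglycerate mutase has a widespread form, PGAM1, and a muscle form, PGAM2. PGAM1 read 191 in brain, 152 in heart, 159 in kidney, 147 in liver, 154 in lung, 118 in muscle and 186 in spleen, and 198, 287 and 274 on the 3 embryo arrays. All 3 embryo values lay above all 7 tissues, which held for 1 of the 36 member probe sets beside 9.43% of all probe sets. As deposited the groups overlapped, with 167 on the first embryo array, 233 in brain and 189.6 in spleen. PGAM2 read 8.21 in brain, 176 in heart, 0.505 in kidney, 18.9 in liver, 0.215 in lung, 359 in muscle and 4.21 in spleen, and 3.79, 10.4 and 4.66 on the 3 embryo arrays. It was bright in muscle and heart and low on every other array.

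Enolase makes phosphoenolpyruvate, and ENO3 is its muscle form. ENO3 read 2.31 in brain, 780.3 in heart, 4.05 in kidney, 12.2 in liver, 19.8 in lung, 1399 in muscle and 7.45 in spleen, and 21.5, 8.05 and 13.6 on the 3 embryo arrays. Heart and muscle were the bright arrays, and the embryos were low with the other 5 tissues. ENO1, the widespread form, read 45.6 in brain, 952 in heart, 67.3 in kidney, 229 in liver, 53.0 in lung, 1611 in muscle and 79.7 in spleen, and 84.9, 89.9 and 84.7 on the 3 embryo arrays with its brightest probe set. That probe set thus shared the heart and muscle peaks of ENO3. The 2 other ENO1 probe sets did not share the heart peak, at 164 and 36.1 in heart and 172 and 147 in muscle, so the ENO1 pattern is uncertain. PKM, pyruvate kinase of muscle and most other tissues, read 49.5 in brain, 60.2 in heart, 105 in kidney, 106 in liver, 347 in lung, 223 in muscle and 146 in spleen, and 143, 127 and 344 on the 3 embryo arrays. Lung was its brightest tissue, and the third embryo array lay more than 2 times above the other embryo arrays.

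**Figure D2:**
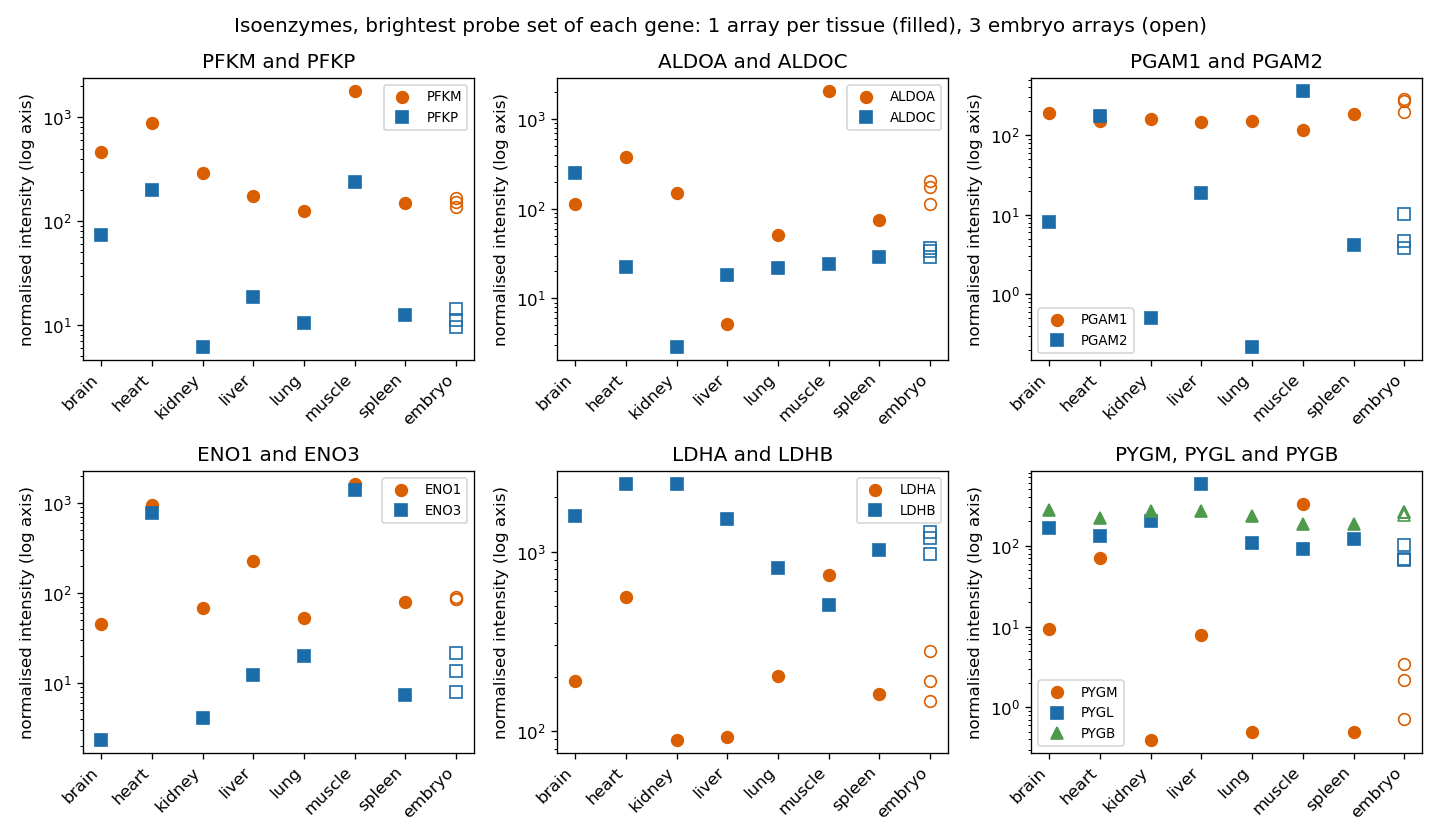
Normalised intensity (log axis) of the brightest probe set of each isoenzyme, with 1 filled point per tissue array and 3 open points for the embryo arrays. Within each gene, the order of arrays can be read, while the height of one gene against another cannot. PFKM, ALDOA, PGAM2, ENO3 and PYGM peak in muscle, PYGL peaks in liver, ALDOC in brain, and LDHB is lowest in muscle.

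Lactate dehydrogenase interconverts pyruvate and lactate. LDHA, the form of fast muscle, read 190.4 in brain, 557 in heart, 88.9 in kidney, 93.3 in liver, 202 in lung, 737 in muscle and 160.4 in spleen, and 278, 189 and 148 on the 3 embryo arrays. LDHB, the form of heart, read 1578 in brain, 2369 in heart, 2369 in kidney, 1521 in liver, 813 in lung, 504 in muscle and 1023 in spleen, and 972, 1284 and 1186 on the 3 embryo arrays. The pair ran in opposite directions in muscle, where LDHA was at its highest and LDHB at its lowest among the 7 tissues. Heart and kidney share 1 LDHB value because the probe set held the same rank on both arrays. As deposited, heart read 2443 and kidney 1871. The other LDHB probe set was flatter, from 955 in lung to 1843 in heart, with 1109 in muscle and 969, 1141 and 1067 in embryos.

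Glycogen phosphorylase releases glucose phosphate from glycogen. PYGM, the muscle form, read 9.23 in brain, 69.7 in heart, 0.39 in kidney, 7.91 in liver, 0.5 in lung, 326 in muscle and 0.5 in spleen, and 3.48, 2.19 and 0.71 on the 3 embryo arrays. Muscle was bright, heart came next, and the embryo arrays were near 0. PYGL, the liver form, read 164 in brain, 133 in heart, 203 in kidney, 577 in liver, 109 in lung, 90.2 in muscle and 121 in spleen, and 67.3, 67.6 and 101 on the 3 embryo arrays. Liver was far above the rest, and the embryos were low, with 2 of the 3 embryo arrays below all 7 tissues. As deposited, those 2 read 53.2 and 74, but the third read 157, above muscle (94.2), lung (95.8), heart (99.7) and spleen (123.8). PYGB, the brain form, was nearly level, at 278 in brain, 219.9 in heart, 266 in kidney, 268 in liver, 232 in lung, 187 in muscle and 187 in spleen, and 259.6, 242 and 258 on the 3 embryo arrays. Its highest value was in brain, by a small margin over liver and kidney, and at a common median liver was highest.

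Phosphorylase kinase switches phosphorylase on, and its alpha subunit has a muscle form, PHKA1, and a liver form, PHKA2. PHKA1 read 12.8 in brain, 1.25 in heart, 0.505 in kidney, 1.0 in liver, 1.02 in lung, 316 in muscle and 1.35 in spleen, and 1.46, 0.92 and 1.05 on the 3 embryo arrays. It was bright in muscle alone. PHKA2 read 253 in brain, 194 in heart, 269 in kidney, 133 in liver, 183 in lung, 191 in muscle and 248 in spleen, and 228, 192 and 172 on the 3 embryo arrays. Its other probe set lay below the array median on all 10 arrays, from 41.4 in lung to 140.4 on the third embryo array. Neither probe set of PHKA2 was brightest in liver in every scaling.

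PGM1 and UGP2 carry glucose phosphate towards and away from glycogen. PGM1, phosphoglucomutase, read 107 in brain, 131 in heart, 46.7 in kidney, 108 in liver, 70.8 in lung, 554 in muscle and 44.7 in spleen, and 64.5, 70.3 and 58.5 on the 3 embryo arrays, with muscle alone standing out. UGP2, which makes UDP-glucose, the substrate of glycogen synthesis, read 679 in brain, 264 in heart, 326 in kidney, 992 in liver, 215 in lung, 1692 in muscle and 380.1 in spleen, and 651, 613 and 482 on the 3 embryo arrays. Muscle, liver and brain were bright, and the embryos lay just below brain.

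The enzymes particular to gluconeogenesis were thinly covered, with 3 of 6 genes. PCK2, mitochondrial phosphoenolpyruvate carboxykinase, read 29.4 in brain, 12.3 in heart, 90.4 in kidney, 375 in liver, 53.8 in lung, 29.4 in muscle and 49.8 in spleen, and 53.3, 58.9 and 44.2 on the 3 embryo arrays. Liver was far above all other arrays. G6PC1, the glucose-6-phosphatase of liver and kidney, read 72.3 in brain, 289 in heart, 299 in kidney, 205 in liver, 182 in lung, 124 in muscle and 161 in spleen, and 249, 251 and 196 on the 3 embryo arrays. Its values did not single out liver: kidney and heart were highest, embryos lay between liver and kidney except for the third array, and brain was lowest. FBP2, the muscle form of fructose bisphosphatase, read 4.28 in brain, 7.2 in heart, 17.7 in kidney, 6.32 in liver, 8.91 in lung, 295 in muscle and 6.36 in spleen, and 10.5, 7.66 and 9.46 on the 3 embryo arrays, bright in muscle alone.

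The main question was how embryos differ from adult tissues taken as 1 group. No enzyme of the list passed in that comparison. Of the 36 probe sets, 0 passed the limma test of the 3 embryo arrays against the 7 tissues at an adjusted p of 0.05, where 7.17% of all 10186 probe sets passed (5.46% higher and 1.71% lower). At an unadjusted p under 0.05 there was 1, beside 20.8% of all probe sets, and exact permutation of the 120 splits gave 2 (5.56%) at an unadjusted p under 0.05, beside 19.8% of all probe sets. With the embryo arrays averaged and counted as 1 sample, limma passed 0 members, where 0.0295% of all probe sets passed, and 0 had an unadjusted p under 0.05, where 6.19% of all did. Differences ran from -1.01 ± 0.61 (SE, limma adjusted p = 0.392) for PFKM to 0.49 ± 0.17 (SE, limma adjusted p = 0.103) for PGAM1, with a median of -0.15 beside -0.05 over all probe sets. As deposited these medians were -0.01 and 0.12, and at a common median -0.17 and -0.08. All 3 embryo arrays were below all 7 tissues for 0 of the 36, beside 5.52% of all probe sets.

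The 2 members under 0.05 in the permutation were PGAM1 and PYGL, a share below that of all probe sets. PGAM1 had an embryo mean of 253 ± 47.9 (SD, n = 3) beside 158 ± 24.4 over the tissues (SD, n = 7), where the exact two-sided permutation p of 0.0167 is the smallest that 120 splits can give. PYGL had an embryo mean of 78.7 ± 19.5 (SD, n = 3) beside 199.6 ± 171 over the tissues (SD, n = 7), a difference of -0.69 ± 0.36 (SE, limma adjusted p = 0.31) with an exact permutation p of 0.0333. Neither p was adjusted, and neither gene passed in limma under any of 19 alternatives, with adjusted p between 0.0714 and 0.956 for PGAM1 and between 0.203 and 0.992 for PYGL.

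Embryos were also set against each tissue on its own, in a limma fit with 8 groups. With 1 array per tissue, the residual variance had 2 degrees of freedom, all from the embryo arrays, each tissue array is assumed to vary like them, and the 7 comparisons share the embryo arrays. A probe set was called at an adjusted p under 0.05 and a difference of at least 1. Dropping this 2-fold limit is among the alternatives counted below for single calls, and by its nature it cannot lose a call.

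Against muscle, embryos were lower for 17 of the 36 probe sets (47.2%), for 14 of the 25 genes, where 8.36% of all probe sets were called lower. The median difference of the 36 was -1.02, beside 0.0047 over all probe sets. By role, 5 of 9 probe sets of the first steps of glycolysis were lower, 6 of 13 of the later steps, 1 of 3 of lactate dehydrogenase, 4 of 8 of glycogen metabolism and 1 of 3 of gluconeogenesis. ENO3 had the widest gap, at -4.09 ± 0.15 (SE, limma adjusted p = 0.00126), followed by ENO1 with 1 of its 3 probe sets at -3.41 ± 0.14 (SE, limma adjusted p = 0.00146), ALDOA at -3.17 ± 0.28 (SE, limma adjusted p = 0.00576), with -2.78 for its other probe set, and PFKM at -3.05 ± 0.16 (SE, limma adjusted p = 0.00232). PGAM2 (-2.46), PYGM (-2.42), PHKA1 (-2.40), PGM1 (-2.20) and FBP2 (-2.17) followed, then TPI1 with 1 of its 3 probe sets (-1.97), PFKP (-1.90), LDHA (-1.57) and UGP2 (-1.44). This order is that of the scale with the offset, which shrinks the gaps of dim probe sets. As plain ratios, muscle exceeded the embryo mean 276.5 times for PHKA1 and 153 times for PYGM, both near 0 in embryos. The ratios were 97.5 for ENO3 and 18.6 for the called ENO1 probe set. The 2 other ENO1 probe sets had differences of 0.04 and -0.38 and were not called. The 3 GAPDH probe sets fell by 2.45, 1.80 and 1.66 in embryos relative to muscle. The calls of ENO1 and PFKM held in all 10 alternatives, and those of ENO3, PGAM2, PYGM and PHKA1 in all 9 that tested them.

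LDHB was the exception. It was higher in embryos than in muscle, by 1.07 ± 0.21 (SE, limma adjusted p = 0.0315), the single member called higher, where 9.68% of all probe sets were, and this call was lost in 5 of 10 alternatives. The other LDHB probe set had a difference of -0.07 and was not called. The count of 17 depended on the second embryo array, since 8 were lower without it, 16 without the first and 18 without the third.

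Heart followed muscle with fewer calls. Embryos were lower than heart for 9 of the 36 probe sets (25%), from 9 genes, where 10.1% of all probe sets were lower, and higher for 0, where 8.0% were. ENO3 (-3.30), ENO1 with 1 of its 3 probe sets (-2.69), TPI1 with the same probe set as in muscle (-2.31), PFKM (-2.09), PFKP (-1.69) and PGAM2 (-1.66) were called in at least 7 of 9 or 10 alternatives. The 2 other ENO1 probe sets had differences of 0.09 and 0.64 from heart and were not called. GPI (-1.10), GAPDH with 1 of 3 probe sets (-1.05) and LDHB with 1 of 2 (-1.01) were close to the limit and were lost in 7, 4 and 4 of 10. None of the 8 glycogen probe sets was called against heart, though 2 fell just short of the limit of 1. PYGM, at 69.7 in heart and a mean of 2.125 in embryos, differed by -0.93 ± 0.06 (SE, limma adjusted p = 0.00372). UGP2 differed the other way, by 0.95 ± 0.21 (SE, limma adjusted p = 0.044). The count of 9 lower calls rose to 14 under scaling to the same median. It was 4 with the offset enlarged 4 times and 1 without the second embryo array, and as deposited 6 were lower and 1 higher.

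**Figure D3:**
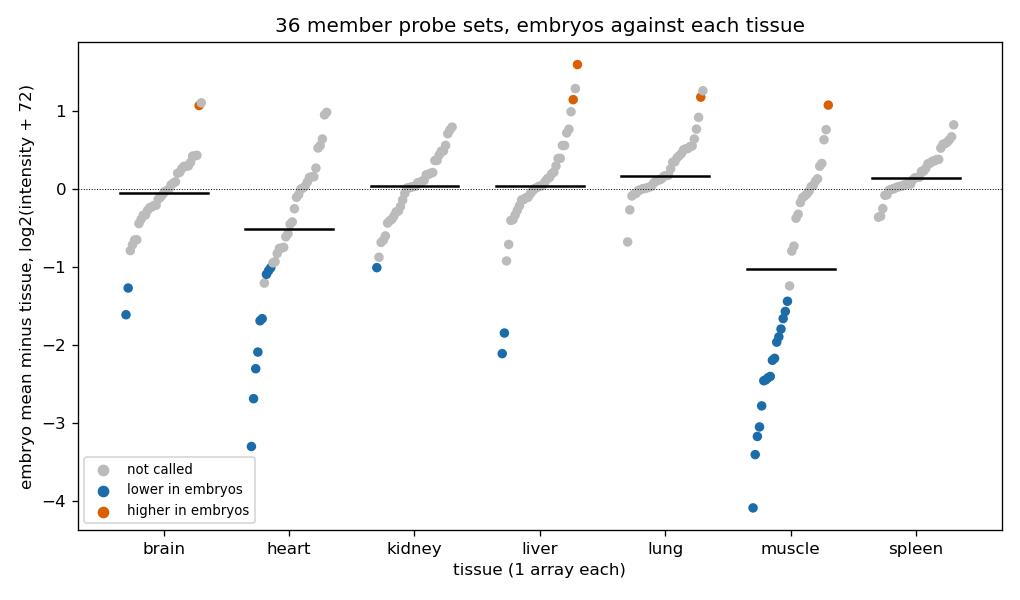
Embryo mean minus each tissue array on the log2(intensity + 72) scale for the 36 member probe sets, sorted within each tissue, with called probe sets in colour and the median as a black bar. Muscle holds 17 lower calls and a median of -1.02, heart 9 lower calls and a median of -0.51, and in spleen no point is called.

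Against liver, embryos were lower for PYGL, at -2.11 ± 0.20 (SE, limma adjusted p = 0.00561), and PCK2, at -1.85 ± 0.14 (SE, limma adjusted p = 0.00319), 2 of the 36 (5.56%) where 10.2% of all probe sets were lower. They were higher for the 2 ALDOA probe sets, by 1.59 and 1.14, where 8.48% of all were higher, and each ALDOA call was lost in 3 of 10 alternatives. As deposited, where embryos exceeded liver by 0.44 at the median of all probe sets, 5 members were higher and 2 lower. Against brain, embryos were lower for ALDOC, at -1.61 ± 0.09 (SE, limma adjusted p = 0.00172), and PFKM, at -1.27 ± 0.16 (SE, limma adjusted p = 0.0112), 2 of the 36 where 10.4% of all were lower. They were higher for G6PC1, at 1.07 ± 0.19 (SE, limma adjusted p = 0.025), where 7.77% of all were. As deposited, 0 were higher, and the calls of PFKM and G6PC1 were lost in 3 and 4 of 10 alternatives.

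Kidney, lung and spleen gave few calls among these enzymes. Against kidney, 1 member was lower, LDHB at -1.01 ± 0.21 (SE, limma adjusted p = 0.0499), where 6.11% of all probe sets were, and that call was lost in 7 of 10 alternatives. No member was higher than in kidney, where 5.19% of all were. Against lung, UGP2 was higher in embryos, at 1.18 ± 0.21 (SE, limma adjusted p = 0.0368), where 4.87% of all were higher and 7.44% lower, and no member was lower. The UGP2 call was lost in 4 of 10 alternatives, with an adjusted p of 0.0873 at a common median and 0.0554 with a larger offset. Against spleen, limma called 0 members in either direction, where 3.59% of all probe sets were higher and 6.31% lower. The median differences of the 36 were 0.03 in kidney, 0.17 in lung and 0.14 in spleen, beside 0.02, 0.06 and 0.03 over all probe sets.

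The ratio of a pair of isoenzymes sets 2 levels from the same array against each other. Where 1 of the pair is dim, as PGAM2, PYGM and PHKA1 were in embryos, the offset makes the ratio follow mostly the other level. It then still varies with the array's brightness. As deposited, PYGM to PYGB was -2.00, -2.19 and -2.61 on the embryo arrays, whose medians were 124, 160 and 221. Only the change of a ratio between arrays is read here, as a description with no test, on the log2 scale for 9 pairs with values. Among tissues, muscle had the highest ratio of PFKM to PFKP, ALDOA to ALDOC, LDHA to LDHB, PYGM to PYGL, PYGM to PYGB and PHKA1 to PHKA2, and the lowest of PGAM1 to PGAM2 and ENO1 to ENO3. These extremes were also found in muscle as deposited, while with a larger offset lung had the lowest ENO1 to ENO3 ratio. With no offset the PFKM to PFKP ratio was 5.56 in kidney and 2.90 in muscle, which also lay below lung (3.61), spleen (3.57) and liver (3.24). The muscle peak of that ratio thus depended on the offset. With the dimmest ENO1 probe set in place of the brightest, heart (-2.98) and not muscle (-2.75) had the lowest ENO1 to ENO3 ratio. The LDHA to LDHB ratio was 0.49 in muscle, between -3.92 in kidney and -1.69 in lung elsewhere among tissues, and -1.58, -2.38 and -2.52 in embryos. The embryo arrays lay near the tissues other than muscle, with the first just above lung.

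For 2 pairs the embryos lay outside all 7 tissues. The ratio of PYGL to PYGB was -1.25, -1.17 and -0.93 in embryos, between -0.75 in lung and -0.30 in kidney for 6 tissues and 0.93 in liver. The ratio of PGAM1 to PGAM2 was 1.83, 2.12 and 2.17 in embryos and between -1.18 in muscle and 1.76 in spleen in tissues. The PYGL to PYGB order was the same as deposited, with no offset and with a larger offset. The PGAM1 to PGAM2 order was not, since the groups overlapped as deposited and with no offset. PGAM2 was low in embryos (3.79, 10.4 and 4.66), so with the offset this ratio there mostly followed the PGAM1 level.

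Around glycolysis, the pentose phosphate pathway makes NADPH and ribose from glucose phosphate. Of its 4 genes with values, 2 rose against the 7 tissues and 0 fell, with a median difference of 1.51, where 5.46% of all probe sets were higher and 1.71% lower. PGD, which makes NADPH by oxidising phosphogluconate, read 30.0 in brain, 11.4 in heart, 174 in kidney, 9.88 in liver, 44.0 in lung, 0.82 in muscle and 166 in spleen, and 739.9, 669.6 and 338 on the 3 embryo arrays. All 3 embryo arrays were above every tissue. It had an embryo mean of 583 ± 215 (SD, n = 3) beside 62.3 ± 74.9 over the tissues (SD, n = 7), a difference of 2.39 ± 0.41 (SE, limma adjusted p = 0.00465). TALDO1, transaldolase, read 148 in brain, 80.1 in heart, 209.7 in kidney, 157 in liver, 336 in lung, 58.1 in muscle and 417 in spleen, and 673, 719 and 486 on the 3 embryo arrays. The groups did not overlap, with a difference of 1.48 ± 0.38 (SE, limma adjusted p = 0.0349). TKT, transketolase, did not pass, at 1.54 ± 0.46 (SE, limma adjusted p = 0.0663), and spleen (446) reached the lowest embryo value (445). PGLS did not pass either. TKT and PGLS, like MPC2 and SLC2A1 below, are named after their values were seen.

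Pyruvate entry into mitochondria had 1 of 10 genes higher and 0 lower, with a median difference of 0.11, beside 5.46% of all probe sets higher. This was MPC1, a subunit of the mitochondrial pyruvate carrier, which read 61.3 in brain, 206 in heart, 149.9 in kidney, 136 in liver, 41.3 in lung, 374 in muscle and 52.0 in spleen, and 513, 633 and 695 on the 3 embryo arrays. Every embryo value exceeded muscle, the brightest tissue, and the difference was 1.80 ± 0.38 (SE, limma adjusted p = 0.0132). Its partner MPC2 did not pass, at -0.05 ± 0.33 (SE, limma adjusted p = 0.941). A list for the malate-aspartate and glycerol shuttles had 6 genes with values, none of them the glycerol shuttle genes GPD1 and GPD2. Of the 6, 1 was higher and 0 lower, with a median of -0.29, beside 5.46% of all probe sets higher and 1.71% lower. GOT1, GOT2, MDH1, MDH2 and SLC25A12 were not called. The called gene was ME1, cytosolic malic enzyme, a further source of NADPH and itself a step of neither shuttle. ME1 read 51.2 in brain, 74.5 in heart, 34.0 in kidney, 23.6 in liver, 38.8 in lung, 45.7 in muscle and 25.4 in spleen, and 157, 250.4 and 179 on the 3 embryo arrays. The difference was 1.23 ± 0.24 (SE, limma adjusted p = 0.00847), and the groups did not overlap.

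Regulators of glycolysis had 1 of 7 genes lower and 0 higher, with a median of -0.62, beside 1.71% of all probe sets lower. PFKFB1, the liver form of the enzyme that sets fructose 2,6-bisphosphate, read 357 in brain, 228 in heart, 190.4 in kidney, 192 in liver, 163 in lung, 364 in muscle and 173 in spleen, and 128, 63.4 and 73.6 on the 3 embryo arrays. Embryos lay below all tissues, and the difference was -0.93 ± 0.24 (SE, limma adjusted p = 0.0372). In 3 more lists limma called 0 genes, beside 7.17% of all probe sets called in either direction. At that share, lists this short can readily hold 0 calls. The lists held 6 isoenzymes outside the member list (median -0.25), 7 glucose and lactate transporters (median -0.27) and 10 further glycogen genes (median -0.49). SLC2A1, the main glucose transporter of early embryos, was among them, at 0.29 ± 0.21 (SE, limma adjusted p = 0.488).

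These 5 calls rested on counting the 3 embryo arrays as replicates. With those arrays averaged and counted as 1 sample, limma adjusted p was 0.452 for PGD, 0.784 for TALDO1, 0.623 for MPC1, 0.598 for ME1 and 0.775 for PFKFB1, in a fit that called 3 of all 10186 probe sets. The calls held in 15 of 19 alternatives for PGD and MPC1, 17 for ME1, 9 for TALDO1 and 7 for PFKFB1. Without the third embryo array, adjusted p was 0.075 for MPC1, 0.0874 for TALDO1 and 0.164 for PFKFB1, while PGD and ME1 still passed. Without the first, ME1 alone passed, and without the second none of the 5 did (lowest adjusted p = 0.0518, for PGD).

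**Figure D4:**
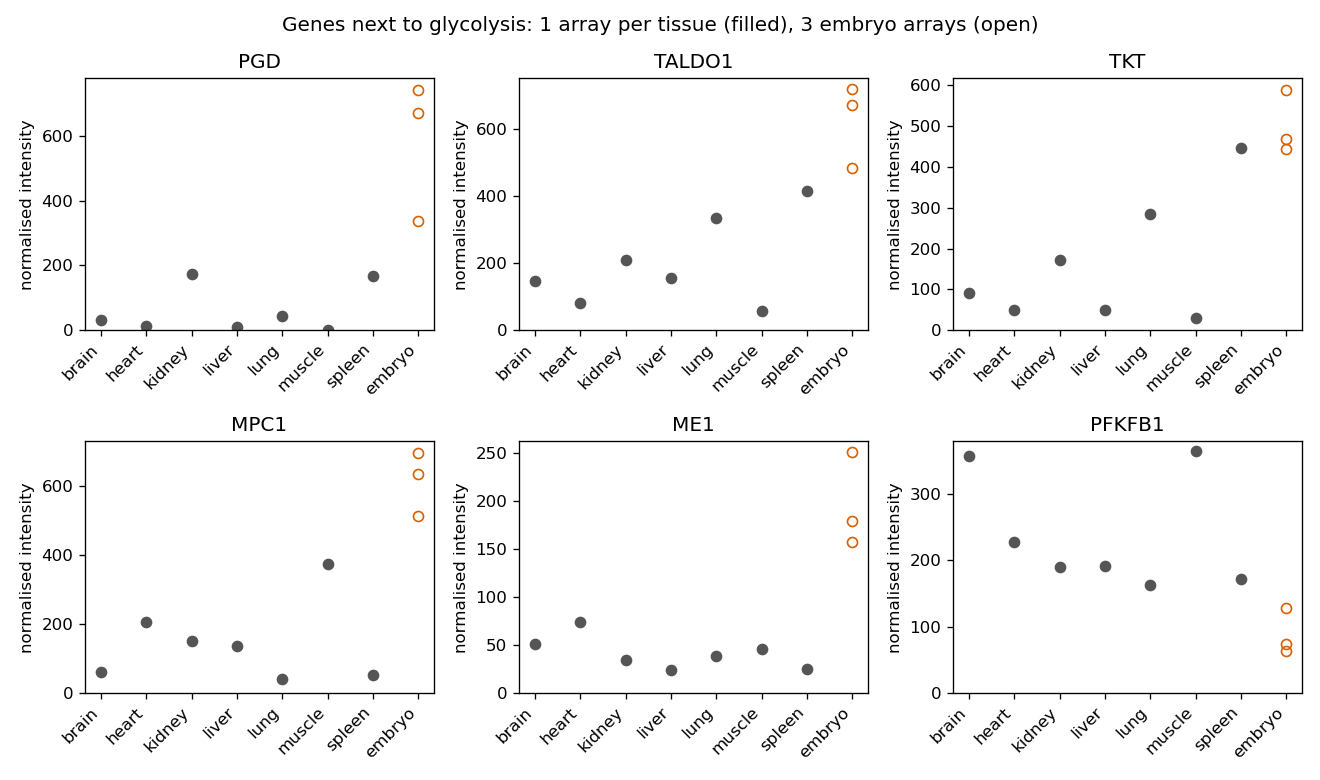
Normalised intensity of 6 genes next to glycolysis, with 1 filled point per tissue array and 3 open points for the embryo arrays. The embryo arrays lie above all tissues for PGD, TALDO1, MPC1 and ME1 and below them for PFKFB1, and for TKT the lowest embryo value (444.5) is just under spleen (445.8).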

How the data were processed

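Each array is a deposited file of linear intensities, 1 value for a probe set, made by the authors with software and scaling that no label names. Of 22283 probe sets, 12064 were blank on every array. The platform annotation gave 8847 of the 10186 tested probe sets 1 symbol, 479 several and 860 none. All 25 member genes with values had an entry among bovine RefSeq genes. Because the 2% trimmed means spanned a ratio of 1.9, intensities were quantile normalized, which hides true differences in total signal. Then 72.2, taken from the arrays' 25th percentiles by their median, was added before log2. Dim probe sets were kept. A filter on values above the array median on at least 3 arrays would have kept 23 of the 36 members.

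Tests used limma 3.58.1 with R 4.3.3, with a trended, robust eBayes and two-sided p-values adjusted by Benjamini-Hochberg over all 10186 probe sets. The code was tried on simulated data. The members, gene lists and tests were chosen with earlier results of these data known. Groups came from the sample titles. Every member with an isoenzyme was described by its brightest probe set, and up to 3 called genes of each neighbouring list were named. Alternatives were the scaling, the offset, the filter, the moderation, averaged embryo arrays, an exact permutation, 1 probe set per gene, no 2-fold limit and each array left out. Leaving out heart and muscle together, and the third embryo array with muscle, were added after the data were seen. Coordinates are not given, as no build is named. Arrays have no depth, and their number limits the precision. Python 3.11.15 and matplotlib 3.10.9 made the figures.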

Additional observations from a re-analysis of the deposited data

Results flagged for a closer look

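Among the 7 tissue arrays, a gap test (Dixon's, at the 95% critical value for 7 values) set 1 array apart for 10 of the 36 probe sets (27.8%) on the log2 scale. The same test set 1 array apart for 20.3% of all 10186 probe sets, against about 1 in 20 groups by chance. With 1 array per tissue, a tissue's own expression and a fault of that array cannot be told apart by this test. Muscle was the high array for 5 probe sets: PYGM at 326, PGM1 at 554, PHKA1 at 316, FBP2 at 295 and the dimmest ENO1 probe set at 147. Brain was high for ALDOC at 249 and for the dimmest TPI1 probe set at 48.3, and liver for PYGL at 577 and PCK2 at 375. Lung was low for the dimmer PHKA2 probe set at 41.4.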

How the results depend on the processing

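No paired analysis was possible because each tissue has 1 array and the replicate numbers belong to the embryo arrays alone. For embryos against the 7 tissues, 0 members were called in every limma alternative, and exact permutation at an unadjusted p gave 1 higher and 1 lower. Over all probe sets, 556 were higher and 174 lower (76.2% higher; as deposited 85.1%). Leaving out 1 array gave 171 to 587 higher and 32 to 215 lower, leaving out the third embryo array with muscle 283 and 36, averaged embryo arrays 3 and 0, no offset 293 lower and a larger offset 85 lower. The causes were not tested beyond the fewer samples.

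For single tissues the 17 lower calls in muscle were 10 with the filter, which tests 23 of the 36, and 8 to 18 without 1 embryo array. Its higher call was 0 as deposited, at a common median and with a larger offset, and 0 to 1 without an embryo array. In heart, lower calls were 14 at a common median, 4 with a larger offset and 1 to 9 without an embryo array, and higher calls were 1 as deposited, 2 with no offset, 1 with no 2-fold limit and 0 to 1 without an embryo array. In brain, higher calls were 0 as deposited, 0 with a larger offset and 0 to 1 without an embryo array, and lower calls were 5 with no offset, 0 with a larger offset, 6 with no 2-fold limit, 1 with the filter and 1 to 2 without an embryo array. In kidney, lower calls were 0 as deposited, at a common median, with a larger offset, without trend and robust settings and without any embryo array, and 2 with no 2-fold limit, and higher calls were 2 with no offset and 2 with no 2-fold limit. In liver, higher calls were 5 as deposited, 5 with no offset, 0 with a larger offset and 0 to 4 without an embryo array, and lower calls were 1 with a larger offset, 1 with the filter and 1 to 2 without an embryo array. In lung, higher calls were 0 at a common median, 3 with no offset, 0 with a larger offset, 2 with the filter and 0 to 3 without an embryo array, and lower calls were 0 to 1 without an embryo array. Single called differences against a tissue kept direction and call in 277 alternatives, kept direction and lost the call in 69 and reversed in none of those run. The 277 include the runs with no 2-fold limit, which cannot lose a call. With 8 groups and 2 embryo arrays, 1 residual degree of freedom remains. Of 36 probe sets, 31 kept their brightest tissue as deposited and 33 at a common median.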

Other observations

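The following genes next to the enzyme list were picked after their values were seen, and tissues had 1 array each, so their values are descriptions. SLC37A4, the transporter that carries glucose phosphate to glucose-6-phosphatase, was brightest in liver with both probe sets, at 1453 and 521, where the next tissues read 229 in heart and 64.3 in spleen. The G6PC1 probe set did not share that liver peak. EPM2A, the glycogen phosphatase laforin, read 5038 in liver and 18.9 to 58.7 in other tissues with 1 probe set, while its 2 other probe sets read 299.7 and 55.7 in liver and were highest in kidney and muscle. PDK2, a kinase that shuts off pyruvate dehydrogenase, read 695 in heart, 169 in muscle, 83.2 in liver, 1.87 to 2.65 in the other tissues and 4.91, 4.68 and 4.42 in embryos. PFKFB3, a regulator of phosphofructokinase, read 45.1 in heart, 298 in liver, 815 to 1706 in the other tissues and 277, 329.9 and 316 in embryos.

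GYG1, glycogenin, which primes new glycogen chains, was low in embryos and in liver with both probe sets. The brighter read 240.1 in brain, 551 in heart, 20.8 in kidney, 63.3 in liver, 341 in lung, 691 in muscle and 225 in spleen, and 41.9, 65.2 and 53.5 on the 3 embryo arrays. It did not pass against the 7 tissues, at -1.27 ± 0.56 (SE, limma adjusted p = 0.218). LDHC, the testis form of lactate dehydrogenase, read 26.5, 40.3 and 252 on the embryo arrays and 248 in muscle, against 4.5 to 32.1 in the 6 other tissues. The third embryo array, high here, was also high for PKM and for the dimmest ENO1 probe set, which read 60.3, 78.7 and 168. The same array was the lowest of the 3 embryo arrays for GPI (82.0), LDHA (148) and both ALDOA probe sets (113 and 122). Its Spearman correlation with muscle over all probe sets was 0.492, against 0.426 and 0.405 for the first and second embryo arrays. The summed skeletal muscle markers were 67.5 on it and 90.5 and 86.3 on the others. Before normalisation the third embryo array also had the highest median of all arrays, at 221, against 124 and 160 for the first and second. What sets the third array apart was not tested.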
